A study of Mus musculus with 21 samples.

Results

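The genes described here are 44 interferon response genes of the mouse, taken by their symbols from 2 RNA-seq tables in FPKM, a count of fragments scaled to transcript length and to the size of the library. They were 44 of 27968 genes listed for the sorted cells and 44 of 22899 genes listed for the cocultures, where 42 of them had values. By role they comprised 4 receptor chains, 8 transcription factors, 9 RNA and DNA sensors, 3 IFIT proteins, 4 IFITM proteins and tetherin, 11 other antiviral effectors and 5 genes of the ISG15, ubiquitin and ADP-ribose systems. The study turned mouse pluripotent stem cells into hematopoietic cells, first in a 3D self-assembling peptide and then on OP9 stromal cells or on 0.1% gelatin. The sorted cells were mESC, picked by SSEA-1 from 129/ola embryonic stem cells kept on feeder fibroblasts, and the day 5 cells D5-LSKCD201+ and D5-LSKCD201- from the OP9 coculture of the same background. Cells of C57BL/6 mice with the LSKCD201+ surface markers came from fetal liver at E12.5 (FL-LSKCD201+) and from bone marrow of adults 6 to 8 weeks old (BM-LSKCD201+). LSK stands for cells without lineage markers that carry Sca-1 and c-kit, and CD201 is the endothelial protein C receptor. The cocultures, 3D+OP9 and 3D+0.1% gelatin, were sequenced as total cells of the 129/ola background on day 5. The medium on OP9 held SCF, IL-3 and Flt3 ligand, and the OP9 cells in that culture had been treated with mitomycin C. Each of the 7 groups had 3 libraries. Strain, tissue and culture cannot be told apart between the day 5 cells and the cells taken from mice.

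Interferons are secreted proteins that warn cells of infection. Type I interferons bind the IFNAR1 and IFNAR2 chains and type II interferon binds the IFNGR1 and IFNGR2 chains, after which JAK kinases phosphorylate STAT proteins. Complexes that hold STAT2 and IRF9 then bind the interferon stimulated response element in the promoters of target genes, while the gamma activated site serves the type II response. The targets include sensors of foreign RNA and DNA, IFIT proteins that bind viral RNA, IFITM proteins that block viral entry and the ubiquitin-like protein ISG15. In hematopoietic stem cells interferon is known for driving quiescent cells into cycle, and stem cells are known to hold some of these genes at a steady level without infection.

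The promoters of 4 members whose FPKM was higher in D5-LSKCD201+ than in D5-LSKCD201- cells are shown to make visible the DNA element that the pathway uses. The sequences are from RefSeq (GRCm38.p6), run 5′ to 3′ in the direction of the gene from 160 to 21 bases before its start, and carry in capitals each match to the core of the interferon stimulated response element, searched as GAAA, any 2 bases and GAAA, or on the other strand as TTTC, any 2 bases and TTTC.
Isg15 (chr4:156200839-156200978, minus strand): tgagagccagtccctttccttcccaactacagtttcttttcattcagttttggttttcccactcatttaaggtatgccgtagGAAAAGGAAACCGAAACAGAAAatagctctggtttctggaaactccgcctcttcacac
Ifit1 (chr19:34640729-34640868, plus strand): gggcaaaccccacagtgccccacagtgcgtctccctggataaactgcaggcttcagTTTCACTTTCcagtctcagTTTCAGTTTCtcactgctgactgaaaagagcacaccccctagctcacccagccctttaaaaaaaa
Rsad2 (chr12:26456473-26456612, minus strand): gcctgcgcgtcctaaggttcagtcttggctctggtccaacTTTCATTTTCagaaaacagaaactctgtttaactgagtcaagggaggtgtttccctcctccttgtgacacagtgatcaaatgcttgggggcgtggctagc
Bst2 (chr8:71537493-71537632, minus strand): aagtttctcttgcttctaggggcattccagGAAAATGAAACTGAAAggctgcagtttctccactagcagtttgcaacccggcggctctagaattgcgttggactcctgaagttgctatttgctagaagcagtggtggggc
The capitals of Isg15 hold 3 overlapping matches, those of Bst2 hold 2 overlapping matches, Ifit1 has 2 separate matches and Rsad2 has 1. Of the 44 members, 34 had a promoter entry reaching from 250 bases before to 50 bases after the start, and 15 of these 34 (44.1%) held a match in at least 1 listed window, against 3.99% of all 27025 genes with an entry. The 15 were Stat2, Irf2, Ifih1, Ddx58, Eif2ak2, Oas3, Ifit1, Ifit3, Ifitm2, Ifitm3, Bst2, Rsad2, Trim30a, Gbp2 and Isg15. Ifitm2 had its match 46 bases before the start, whereas the Ifitm1 window held none. The letters of the gamma activated site, searched as TTC, any 3 bases and GAA, which read the same on both strands and may share bases with the first motif, occurred in 11 of the 34 members (32.4%) and in 9.55% of all genes. Of the 15 members with a match to the first motif, 7 were higher in D5-LSKCD201+ than in D5-LSKCD201-, and of the 19 with an entry but no match, 8 were higher. Oas3, among the 15, was too low to be tested in this comparison. Of all genes tested, 10.8% were higher. A match describes the letters only and was not tested as a binding site.

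Before the members were compared, the libraries were checked against marker genes of the cell types they could hold. Pluripotency markers summed to 3749-4247 FPKM in D5-LSKCD201-, against 6835-7400 FPKM in mESC and 24.5-32.8 FPKM in D5-LSKCD201+, with all 8 of them at 1 FPKM or more in D5-LSKCD201-. Endothelial markers summed to 1805-1827 FPKM in D5-LSKCD201+, 114-120 FPKM in D5-LSKCD201-, 52.3-56.2 FPKM in mESC, 334-371 FPKM in BM-LSKCD201+ and 454-499 FPKM in FL-LSKCD201+. Pan-leukocyte markers were at 59.7-64.6 FPKM in D5-LSKCD201+, 25.1-26.2 FPKM in D5-LSKCD201- and 1778-2011 FPKM in BM-LSKCD201+. Stromal markers summed to 109-116 FPKM in D5-LSKCD201+, 49.0-85.1 FPKM in D5-LSKCD201- and 8.25-10.2 FPKM in mESC, and macrophage markers to 41.0-43.0 FPKM, 15.9-19.0 FPKM and at most 12.0 FPKM. The part of these cell types in the differences between sorted groups was not tested. In bulk RNA, fewer cells of a type and less RNA per cell cannot be told apart. Within groups, BM replicate 1, FL replicate 1, D5-LSKCD201- replicate 2 and 3D+OP9 replicate 3 stood apart from the other two libraries (Pearson r of log2 values 0.976-0.989 with them, against 0.996-0.998 between those). The study calls the sorted-cell libraries biological replicates and describes the sorted day 5 samples as coming from independent experiments. The labels name no culture or animal for any library, so it could not be checked here whether p-values measure more than a technical spread between these libraries.

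BM-LSKCD201+ cells held most members at their highest level, and mESC held most at their lowest. The group mean was highest in BM-LSKCD201+ for 38 of 44 members, in D5-LSKCD201+ for 4 (Ifnar1, Ifngr2, Isg15 and Stat2), in D5-LSKCD201- for Usp18 and in FL-LSKCD201+ for Irf8. The mean was lowest in mESC for 28 members, in D5-LSKCD201- for 8 and in D5-LSKCD201+ for 7. The median member stood at 20.3 FPKM in BM-LSKCD201+, 11.1 FPKM in FL-LSKCD201+, 6.04 FPKM in D5-LSKCD201+, 1.81 FPKM in D5-LSKCD201- and 1.36 FPKM in mESC. All 44 members reached 1 FPKM in BM-LSKCD201+, 38 did so in FL-LSKCD201+, 37 in D5-LSKCD201+, 28 in D5-LSKCD201- and 25 in mESC.

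**Figure D1:**
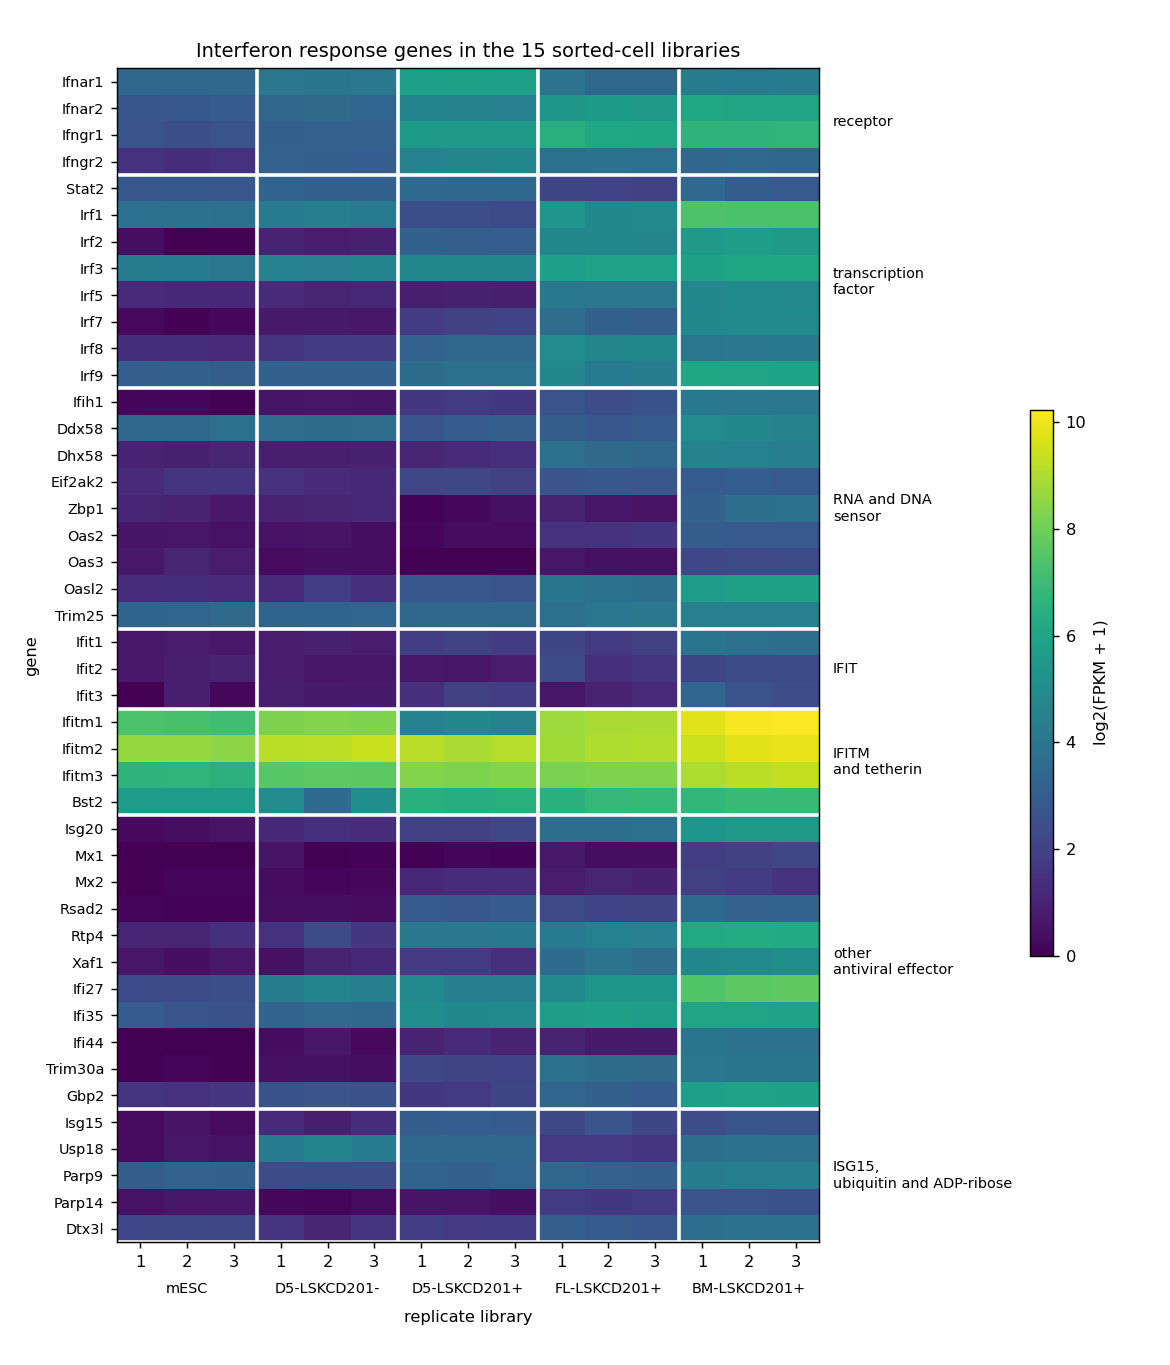
Level of each of the 44 interferon response genes (rows, grouped by role) in each of the 15 sorted-cell libraries (columns, 3 per group), coloured by log2(FPKM + 1). The IFITM rows are bright in all groups except Ifitm1 in D5-LSKCD201+, and most other rows are brightest in BM-LSKCD201+.

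The comparison of D5-LSKCD201+ with D5-LSKCD201- cells addressed what sets the CD201+ fraction apart within one coculture. All 4 interferon receptor chains, the factors Irf2, Irf7 and Irf8 and several antiviral effectors were higher in D5-LSKCD201+ cells, while Ifitm1 and Irf1 were lower. Of the 40 members that passed the filter of a mean of at least 0.5 FPKM, 17 were higher and 2 were lower with an adjusted p under 0.05 (limma on log2(FPKM + 1), Benjamini-Hochberg over all 13691 genes tested) and a log2 fold change of at least 1. Among all genes tested, 10.8% were higher and 13.9% were lower by the same rule (24.7% in all). The median log2 fold change of the tested members was 0.80, against -0.12 over all genes. Mx1, Oas2, Oas3 and Parp14 did not pass the filter, and the other 21 members did not pass both thresholds.

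All 4 receptor chains were higher in D5-LSKCD201+ than in D5-LSKCD201- cells. Ifnar1 (chr16:91485238-91507441) measured 54.4, 55.6 and 54.0 FPKM in the D5-LSKCD201+ libraries and 15.8, 14.8 and 16.0 FPKM in the D5-LSKCD201- libraries, which gave a log2 fold change of 1.75 ± 0.06 (SE; limma adjusted p = 4.2e-07). Ifngr1 (chr10:19591949-19610229) measured 46.6, 44.5 and 44.5 FPKM against 7.91, 8.44 and 8.20 FPKM, a log2 fold change of 2.33 ± 0.06 (adjusted p = 1.9e-07). The second type II chain, Ifngr2 (chr16:91547072-91565623), measured 22.2, 24.3 and 25.0 FPKM against 8.19, 7.81 and 7.42 FPKM, a log2 fold change of 1.50 ± 0.08 (adjusted p = 3.6e-06). Libraries of the 2 groups did not overlap for any of these chains. Ifnar2 (chr16:91372783-91405589), the second type I chain, differed least, with 22.7 ± 1.26 FPKM (SD, n = 3) against 9.74 ± 0.80 FPKM and a log2 fold change of 1.14 ± 0.08. Ifnar2, Ifnar1 and Ifngr2 lie in this order within one stretch of chromosome 16, and positions are those of GENCODE on GRCm38. The locus given for Ifnar2 in the deposited table runs past this end and overlaps another gene model on the same strand.

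The receptor chains followed different orders across the groups. Ifnar1 was highest in D5-LSKCD201+ (54.6 ± 0.83 FPKM, n = 3), followed by BM-LSKCD201+ at 18.8 ± 0.35 FPKM, and lay between 9.67 and 16.0 FPKM in the libraries of the other 3 groups. Ifngr2 was also highest in D5-LSKCD201+ (23.8 ± 1.49 FPKM), followed by FL-LSKCD201+ at 12.9 ± 0.52 FPKM and BM-LSKCD201+ at 9.75 ± 0.49 FPKM. Libraries of FL-LSKCD201+ and mESC overlapped for Ifnar1, whereas no neighboring groups overlapped for Ifngr2. Ifnar2 and Ifngr1 instead had their lowest mean in mESC (6.21 ± 0.63 and 5.01 ± 0.43 FPKM) and their highest in BM-LSKCD201+ (64.5 ± 2.77 and 101 ± 2.67 FPKM), with the D5-LSKCD201+ mean below that of FL-LSKCD201+ and above that of D5-LSKCD201- for both.

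**Figure D2:**
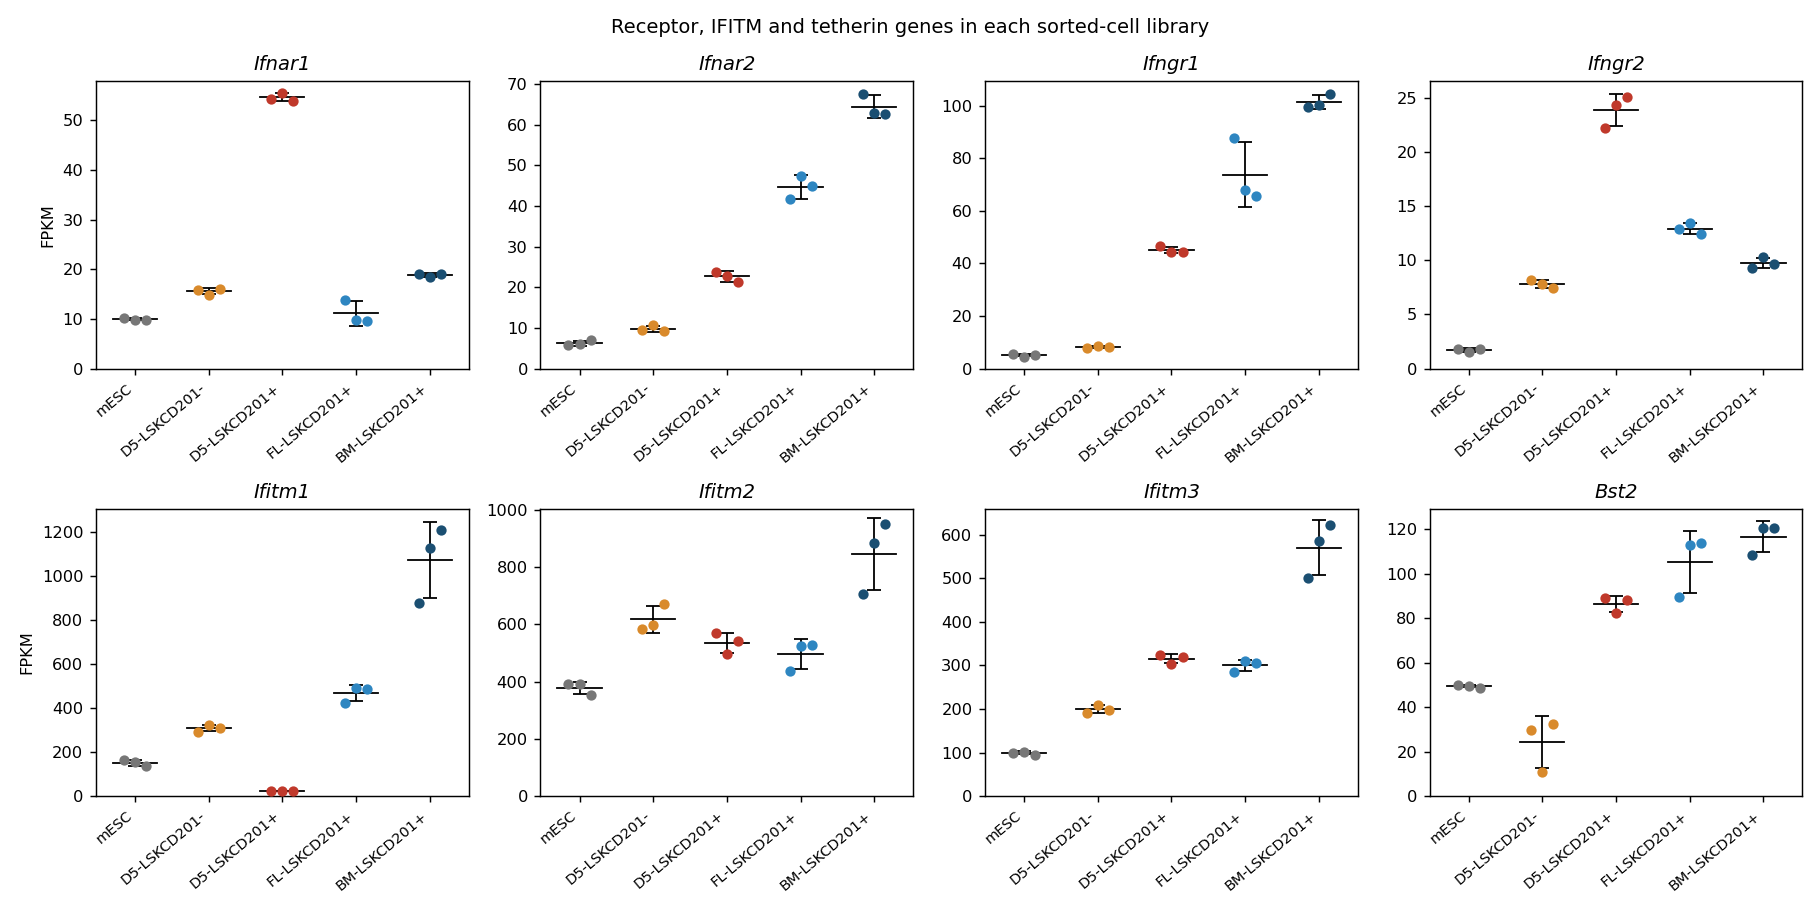
FPKM of the 4 receptor genes (top) and of the 3 IFITM genes and Bst2 (bottom) in each sorted-cell library. Points are libraries, horizontal bars are group means and error bars are SD (n = 3). Ifnar1 and Ifngr2 peak in D5-LSKCD201+, whose Ifitm1 libraries lie between 21.8 and 25.8 FPKM, below every other group.

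Among the transcription factors, 3 of 8 were higher and 1 was lower in D5-LSKCD201+ cells. Irf2, which competes with IRF1 at its sites, measured 8.18, 7.50 and 7.26 FPKM against 0.968, 0.753 and 0.866 FPKM in D5-LSKCD201-, which gave a log2 fold change of 2.22 ± 0.10 (limma adjusted p = 1.6e-06). Irf8, a factor of myeloid and dendritic cell formation, measured 8.24, 9.82 and 9.70 FPKM against 1.99, 2.41 and 2.44 FPKM, a log2 fold change of 1.64 ± 0.11. Irf7, which amplifies type I interferon production, reached 2.86 ± 0.36 FPKM against 0.63 ± 0.06 FPKM, a log2 fold change of 1.24 ± 0.10. These 3 genes separated the groups in all libraries, although Irf7 overlaps Phrf1 on the opposite strand and Irf8 lies within a longer gene model on its own strand, and strand use was not stated.

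Irf1, an activator of interferon and antigen presentation genes, went the other way. It measured 4.51, 4.48 and 3.87 FPKM in D5-LSKCD201+ and 18.2, 19.8 and 18.3 FPKM in D5-LSKCD201-, which gave a log2 fold change of -1.91 ± 0.09 (limma adjusted p = 1.9e-06). The Irf1 level in D5-LSKCD201+ was the lowest of the 5 groups, with 12.6 ± 0.52 FPKM in mESC, 30.9 ± 7.02 FPKM in FL-LSKCD201+ and 160 ± 5.80 FPKM in BM-LSKCD201+. The partners of the type I response did not pass both thresholds. Stat2 stood at 10.1 ± 0.24 FPKM in D5-LSKCD201+ and 8.12 ± 0.41 FPKM in D5-LSKCD201-, and Irf9 at 11.9 ± 0.58 FPKM and 7.98 ± 0.08 FPKM. Irf3, which is activated by the sensor pathways, stood at 25.8 ± 0.70 FPKM and 22.3 ± 1.28 FPKM, and Irf5 at 0.861 ± 0.064 FPKM and 1.21 ± 0.13 FPKM.

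Of the 7 sensors tested, 2 were higher in D5-LSKCD201+ cells. Ifih1, the sensor MDA5 of long double-stranded RNA, measured 2.18, 2.37 and 2.14 FPKM in D5-LSKCD201+ and 0.506, 0.531 and 0.506 FPKM in D5-LSKCD201-, and passed both thresholds as higher. Oasl2, of the oligoadenylate synthetase family, also passed them, with 5.67 ± 0.36 FPKM against 1.94 ± 0.73 FPKM. Ddx58, the sensor RIG-I of RNA 5′ ends, stood at 6.56 ± 1.09 FPKM against 11.5 ± 0.17 FPKM, and Zbp1, a sensor of Z-form nucleic acids, at 0.205 ± 0.157 FPKM against 1.10 ± 0.13 FPKM. Oas3 was listed at 0 in all 3 D5-LSKCD201+ libraries. Dhx58, Eif2ak2 and Trim25, which respectively modulate RIG-I signaling, stop translation on double-stranded RNA and ubiquitinate RIG-I, did not pass both thresholds.

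Ifitm2 had the highest FPKM of all members in both day 5 fractions. On the log2(FPKM + 1) scale, Ifitm1 showed the largest difference of the 40 members tested. By the plain ratio of mean FPKM, Rsad2 differed more (6.42 against 0.296 FPKM). Ifitm1 (chr7:140967221-140969825) measured 21.8, 25.8 and 23.2 FPKM in D5-LSKCD201+ and 294, 322 and 310 FPKM in D5-LSKCD201-, which gave a log2 fold change of -3.66 ± 0.07 (limma adjusted p = 6.8e-08). Its neighbors on chromosome 7 had other values. Ifitm2 (chr7:140954837-140955987) measured 569, 497 and 541 FPKM against 585, 597 and 672 FPKM, and Ifitm3 (chr7:141009586-141010770) measured 324, 303 and 320 FPKM against 191, 209 and 199 FPKM, and neither reached a log2 fold change of 1 in size. The 3 genes are similar in sequence, and how the authors divided reads shared between them is not given in the sources used here. Bst2 (chr8:71534255-71537456), or tetherin, which holds budding virus at the cell surface, measured 89.2, 82.4 and 88.1 FPKM in D5-LSKCD201+ and 29.7, 10.8 and 32.6 FPKM in D5-LSKCD201-, which gave a log2 fold change of 1.93 ± 0.37 (adjusted p = 0.0028). The low library was replicate 2, one of those that stood apart, and the log2 fold change was 1.45 without it.

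The IFIT genes and other effectors stood mostly under 20 FPKM in the day 5 cells, and 6 of the 13 tested were higher in D5-LSKCD201+. Rsad2 (chr12:26442746-26456452), which encodes the antiviral enzyme viperin, measured 6.51, 5.78 and 6.97 FPKM in D5-LSKCD201+ and 0.313, 0.298 and 0.275 FPKM in D5-LSKCD201-, which gave a log2 fold change of 2.51 ± 0.10 (limma adjusted p = 8.4e-07). Rtp4, a receptor transporter protein, measured 16.1, 16.4 and 16.7 FPKM against 1.80, 4.03 and 2.05 FPKM, a log2 fold change of 2.31 ± 0.21 (adjusted p = 6.4e-05), and it overlaps Masp1 on the opposite strand. Ifit1 measured 2.73, 3.30 and 2.53 FPKM against 0.760, 0.919 and 0.716 FPKM and passed both thresholds, whereas Ifit2 stood at 0.622 ± 0.101 FPKM against 0.619 ± 0.100 FPKM. Ifit3 lay at 2.37 ± 0.64 FPKM against 0.709 ± 0.085 FPKM and did not reach a log2 fold change of 1. Trim30a, Ifi35 and Mx2 were the remaining effectors past both thresholds, with 3.36 ± 0.18, 28.6 ± 2.26 and 1.39 ± 0.14 FPKM in D5-LSKCD201+ against 0.343 ± 0.042, 9.62 ± 0.92 and 0.196 ± 0.062 FPKM. Mx2 lay at the threshold itself and missed it, at 0.97 to 0.99, without replicate 2 or replicate 3 of either group. Rsad2, Trim30a and Mx2 had D5-LSKCD201- means under 0.5 FPKM and passed the filter through D5-LSKCD201+.

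Isg15 and Usp18, which encode the ubiquitin-like modifier and the protease that removes it and also restrains receptor signaling, differed in their pattern. Isg15 (chr4:156199424-156200818) measured 7.21, 7.27 and 6.77 FPKM in D5-LSKCD201+ and 1.32, 0.838 and 1.48 FPKM in D5-LSKCD201-, which gave a log2 fold change of 1.88 ± 0.13 (limma adjusted p = 1.5e-05). Its D5-LSKCD201+ libraries were above all libraries of the other 4 groups, the highest of which was 5.67 FPKM in BM-LSKCD201+. Usp18 (chr6:121245906-121270917) measured 9.73, 9.81 and 9.59 FPKM in D5-LSKCD201+ and 17.8, 23.7 and 17.2 FPKM in D5-LSKCD201-, and its log2 fold change did not reach 1 in size. Both day 5 fractions were higher than mESC for Usp18, where it stood at 0.406 ± 0.144 FPKM. Parp9 and Dtx3l, partners that add ubiquitin and ADP-ribose, stood at 8.56 ± 0.53 and 2.49 ± 0.18 FPKM in D5-LSKCD201+ against 4.12 ± 0.15 and 1.69 ± 0.47 FPKM, and they overlap each other on opposite strands.

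**Figure D3:**
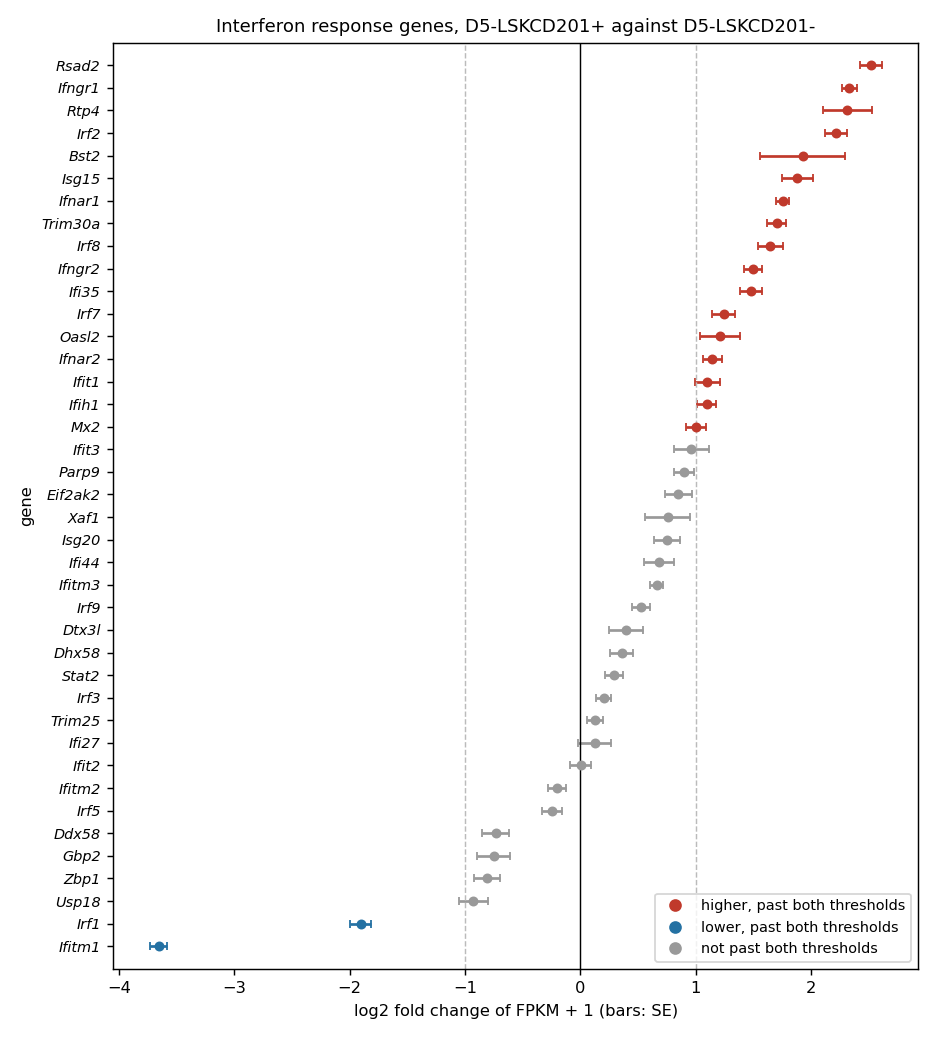
Log2 fold change of FPKM + 1 between D5-LSKCD201+ and D5-LSKCD201- for the 40 members tested (points, with SE bars), sorted by size. Red points are the 17 members higher and blue points the 2 members lower past both thresholds (dashed lines at -1 and 1), and Ifitm1 lies at -3.66.

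Other genes of the pathway were read from lists of 102 genes (ligands, signal transducers, negative regulators, sensing adaptors and kinases, and further interferon induced genes). Of the 65 that passed the filter in this comparison, 21 were higher and 5 were lower in D5-LSKCD201+, where 10.8% and 13.9% of all genes were. Tmem173, which encodes the DNA sensing adaptor STING, measured 34.5, 37.2 and 35.6 FPKM against 2.17, 3.19 and 2.17 FPKM, a log2 fold change of 3.40 ± 0.12 (limma adjusted p = 7.1e-07). Uba7, the activating enzyme of ISG15, and Gbp4, a guanylate binding protein, were higher by 2.59 ± 0.12 and 2.21 ± 0.14 on the log2 scale. Ifi30, a lysosomal thiol reductase, Phf11d and Plscr1, a phospholipid scramblase, were lower, with log2 fold changes of -3.44 ± 0.13, -3.41 ± 0.17 and -2.04 ± 0.08. The kinase gene Jak1 is named for its role in receptor signaling, outside the rule for named genes. It stood at 50.2 ± 0.64 FPKM in D5-LSKCD201+ and 18.0 ± 1.12 FPKM in D5-LSKCD201-, past both thresholds. Interferon ligand genes were barely detected: the 6 of 21 with a row in the sorted-cell table summed to at most 0.58 FPKM in any library, and none passed the filter.

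Between D5-LSKCD201+ cells and mESC, the starting cells, the 4 receptor chains, 3 of 8 factors (Irf2, Irf7 and Irf8) and 9 of 10 other effectors tested were higher, and Ifitm1 and Irf1 were lower. Of these effectors, Isg20, Mx2, Rsad2, Ifi44 and Trim30a had mESC means under 0.5 FPKM and passed the filter through D5-LSKCD201+. So did Irf2, Irf7, Ifih1, Ifit3, Isg15 and Usp18. Ifi44 missed the filter without D5-LSKCD201+ replicate 1 or 2. Xaf1 missed the threshold without either of these libraries or without mESC replicate 2. Of 40 members tested, 23 were higher and 2 were lower, where 19.5% of all genes were higher and 18.1% were lower (37.6% in all). The median log2 fold change of the members was 1.18, against -0.07 over all genes. All 4 receptors were higher, with log2 fold changes of 3.19 ± 0.08 for Ifngr2, 2.94 ± 0.06 for Ifngr1, 2.35 ± 0.04 for Ifnar1 and 1.72 ± 0.08 for Ifnar2. On the log2(FPKM + 1) scale, the largest of the other differences were 2.95 ± 0.11 for Irf2, 2.94 ± 0.11 for Rtp4, 2.93 ± 0.09 for Usp18 and 2.78 ± 0.09 for Rsad2. Irf2 was at 0.315, 0.021 and 0.042 FPKM and Rsad2 at 0.088, 0.069 and 0.072 FPKM in the mESC libraries, all under 1 FPKM. Irf8 and Irf7 were higher by 2.06 ± 0.09 and 1.77 ± 0.10 on the log2 scale. The 2 lower members were Ifitm1 (log2 fold change -2.63 ± 0.08), which measured 163, 154 and 137 FPKM in mESC, and Irf1 (-1.36 ± 0.07).

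Of the other pathway genes, 25 of 61 tested were higher and 8 were lower in D5-LSKCD201+ than in mESC. Among all genes tested, 19.5% were higher and 18.1% were lower. Tmem173 (1.07 ± 0.24 FPKM in mESC), Lgals3bp, a secreted glycoprotein, and Tdrd7, a tudor domain protein, had the largest increases, at 4.16 ± 0.09, 3.85 ± 0.11 and 3.66 ± 0.07 on the log2 scale. Phf11d, Ifi30 and Pml, the core of the nuclear bodies that bear its name, were lower, at -3.11 ± 0.14, -2.91 ± 0.10 and -2.90 ± 0.05. Comparisons that share D5-LSKCD201+ libraries are not independent of each other.

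Fewer members passed the test between D5-LSKCD201- cells and mESC. Of 34 members tested, 6 were higher and 1 was lower, where 10.9% of all genes were higher and 3.48% were lower (14.3% in all). The member median was 0.40 and that of all genes was 0.05. Usp18 showed the largest difference (log2 fold change 3.86 ± 0.15, limma adjusted p = 1.7e-06), followed by Ifi27, an interferon-induced membrane protein, at 2.11 ± 0.11. Usp18 had a mESC mean under 0.5 FPKM and passed the filter through D5-LSKCD201-. Ifi27 measured 19.3, 23.8 and 19.8 FPKM in D5-LSKCD201- and 3.92, 3.91 and 4.43 FPKM in mESC. Ifngr2 was higher by 1.70 ± 0.10. Gbp2, which encodes a guanylate binding protein, and Ifitm1 lay close to the threshold, at 1.05 ± 0.10 and 1.03 ± 0.08, and Ifitm3 lay at the threshold itself (SE 0.06). Each of these missed it under quantile normalization and without D5-LSKCD201- replicate 2, where 3 members were higher. Bst2 was the lower member (-1.13 ± 0.36), and without D5-LSKCD201- replicate 2 its log2 fold change was -0.65 and not past the thresholds. The pathway lists had 13 higher and 3 lower genes of 54 tested, led by Lgals3bp (2.66 ± 0.15), Ifi204 (2.02 ± 0.11) and Oas1a (1.86 ± 0.10), with Socs3, a feedback inhibitor of JAK signaling, lower by -2.88 ± 0.32. The other lower genes were Pml (-1.59 ± 0.18) and Traf3 (-1.11 ± 0.13).

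Against LSKCD201+ cells of fetal liver, D5-LSKCD201+ cells had lower levels of most interferon regulatory factors and of Ifitm1, and higher levels of 3 members. Of 41 members tested, 3 were higher and 17 were lower, where 15.1% of all genes were higher and 19.6% were lower (34.7% in all). Oas2 and Parp14, both among the lower members, had D5-LSKCD201+ means under 0.5 FPKM and passed the filter through FL-LSKCD201+. The median log2 fold change was -0.73 over the members and -0.16 over all genes. Ifnar1 (2.22 ± 0.14), Usp18 (1.75 ± 0.08) and Stat2 (1.41 ± 0.08) were the higher members, the last of which measured 3.46, 3.12 and 2.98 FPKM in FL-LSKCD201+, its lowest group. Ifitm1 was lower by -4.25 ± 0.10 (limma adjusted p = 1.0e-07), having measured 424, 492 and 485 FPKM in FL-LSKCD201+. Irf5, a factor of macrophages and other immune cells, measured 16.5, 15.5 and 16.4 FPKM in FL-LSKCD201+ and 0.823, 0.934 and 0.825 FPKM in D5-LSKCD201+, which gave a log2 fold change of -3.20 ± 0.08. Irf1, Irf2, Irf8, Irf7 and Irf3 were also lower, at -2.58 ± 0.16, -1.57 ± 0.07, -1.42 ± 0.11, -1.35 ± 0.17 and -1.11 ± 0.07.

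The sensors and effectors held both lower members and members that did not pass the test. Dhx58, Xaf1, a partner of the apoptosis inhibitor XIAP, and the exonuclease Isg20 were lower in D5-LSKCD201+, at -2.34 ± 0.12, -2.09 ± 0.13 and -1.73 ± 0.10. Ifit2, Oasl2 and Dtx3l were also lower but were no longer called under quantile normalization, and Ifit2 also not without FL replicate 1. Rtp4 (16.4 ± 0.27 against 20.1 ± 2.20 FPKM), Ifitm3 (316 ± 11.2 against 300 ± 12.8 FPKM), Bst2 (86.5 ± 3.64 against 105 ± 13.9 FPKM) and Ifit1 (2.85 ± 0.40 against 2.89 ± 0.55 FPKM) did not pass both thresholds. Pan-leukocyte markers summed to 1434-1711 FPKM in FL-LSKCD201+ and 59.7-64.6 FPKM in D5-LSKCD201+, macrophage markers to 593-659 FPKM and 41.0-43.0 FPKM, and erythroid markers to 339-398 FPKM and 30.6-50.1 FPKM, and their part in these differences was not tested. Pathway lists had 5 higher and 34 lower genes of 74 tested, where 15.1% and 19.6% of all genes were. Gbp4 (3.34 ± 0.12), Socs3 (2.26 ± 0.07) and the double-stranded RNA receptor Tlr3 (1.99 ± 0.11) were higher, while Sp110, a nuclear body protein, Epsti1 and Ifi203, of the DNA-binding HIN family, were lower at -5.18 ± 0.14, -4.37 ± 0.11 and -4.31 ± 0.08.

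Against LSKCD201+ cells of adult bone marrow, most members were lower. Of 44 members tested, 2 were higher and 32 were lower in D5-LSKCD201+, where 17.5% of all genes were higher and 27.2% were lower (44.7% in all). The member median was -1.88 and that of all genes -0.23. Ifnar1 (1.49 ± 0.05) and Ifngr2 (1.21 ± 0.07) were higher, whereas the other chain of each receptor, Ifnar2 (-1.47 ± 0.06) and Ifngr1 (-1.15 ± 0.05), was lower. The largest differences on the log2(FPKM + 1) scale were those of Ifitm1 (-5.44 ± 0.12), Irf1 (-4.93 ± 0.07), Gbp2 (-3.99 ± 0.12), Irf5 (-3.92 ± 0.07), Isg20 (-3.45 ± 0.08) and Zbp1 (-3.28 ± 0.19). Ifitm1 measured 878, 1125 and 1209 FPKM and Irf1 measured 167, 156 and 158 FPKM in BM-LSKCD201+. Irf7, Irf2, Irf9 and Irf3 were lower, at -2.89 ± 0.09, -2.47 ± 0.09, -2.31 ± 0.06 and -1.25 ± 0.06. By role, 8 of 9 sensors, 3 of 3 IFIT genes and 9 of 11 other effectors were lower. Of these, Ifit3, Trim25 and Ifi35 missed the threshold under quantile normalization, and Ifit3 also without D5-LSKCD201+ replicate 1 or BM replicate 1. Zbp1, Oas2, Oas3, Mx1 and Parp14 had D5-LSKCD201+ means under 0.5 FPKM and passed the filter through BM-LSKCD201+.

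Members that did not pass both thresholds against bone marrow included Isg15 (7.08 ± 0.27 FPKM in D5-LSKCD201+ and 5.24 ± 0.71 FPKM in BM-LSKCD201+), Stat2 (10.1 ± 0.24 and 7.92 ± 2.23 FPKM), Rsad2 (6.42 ± 0.60 and 9.29 ± 1.47 FPKM) and Bst2 (86.5 ± 3.64 and 117 ± 6.95 FPKM). In the pathway lists, 3 genes were higher and 54 were lower of 79 tested, where 17.5% and 27.2% of all genes were. Gbp4 (1.62 ± 0.10), Tlr3 (1.58 ± 0.14) and Ifi204 (1.53 ± 0.24) were higher, and Sp110 (-5.58 ± 0.13), the GTPase gene Ifi47 (-5.51 ± 0.11) and Ifi203 (-5.37 ± 0.07) were lower. Pan-leukocyte markers, given above, were lower in D5-LSKCD201+ as most of these genes were, and their part was not tested.

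Between the populations taken from mice, FL-LSKCD201+ cells held much of the list below BM-LSKCD201+ cells. Of 44 members tested, 23 were lower and 0 were higher in FL-LSKCD201+ (limma), where 11.3% of all genes were lower and 7.78% were higher (19.1% in all). At an adjusted p under 0.05 alone, 2 members lay above BM-LSKCD201+, Irf8 (26.4 ± 2.72 against 16.0 ± 0.71 FPKM) and Ifngr2. Both missed only the fold change threshold. The member median was -1.09 and that of all genes -0.13. Ifi44, a cytoplasmic interferon-induced protein, measured 1.02, 0.654 and 0.664 FPKM in FL-LSKCD201+ and 14.6, 13.5 and 13.0 FPKM in BM-LSKCD201+, which gave a log2 fold change of -3.05 ± 0.13 (adjusted p = 4.1e-06). Zbp1 measured 0.949, 0.549 and 0.473 FPKM against 7.85, 12.1 and 12.7 FPKM (-2.83 ± 0.20), and Gbp2 measured 9.15, 7.86 and 6.83 FPKM against 54.1, 58.9 and 56.4 FPKM (-2.69 ± 0.11). Ifi27, Irf1 and Usp18 followed, at -2.39 ± 0.17, -2.36 ± 0.15 and -2.08 ± 0.10. The groups did not overlap for any of these genes.

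By role, 8 of 11 other effectors, 6 of 9 sensors, 4 of 8 factors and 2 of 3 IFIT genes were lower in FL-LSKCD201+. Oas3 and Mx1 had FL-LSKCD201+ means under 0.5 FPKM and passed the filter through BM-LSKCD201+. None of the 4 receptors was past both thresholds. Irf9 (-1.58 ± 0.14), Irf7 (-1.53 ± 0.16) and Stat2 (-1.07 ± 0.18) were the remaining factors below bone marrow. Stat2 was no longer called under quantile normalization or without BM replicate 1, which measured 10.5 FPKM against 7.11 and 6.21 FPKM in the others. Parp9 was also no longer called under quantile normalization. Isg15, Bst2, Ifi35, Irf3 and Eif2ak2 had the smallest differences, from -0.29 to -0.14 on the log2 scale. Of 77 pathway genes tested, 2 were higher and 35 were lower, where 7.78% and 11.3% of all genes were. The higher genes were Ifi30 (3.13 ± 0.10) and Slfn2, of the schlafen family (1.41 ± 0.19). The lower genes were led by Socs3 (-3.79 ± 0.12), the GTPase gene Iigp1 (-3.16 ± 0.13) and the chemokine gene Ccl5 (-2.82 ± 0.35). Erythroid markers summed to 339-398 FPKM in FL-LSKCD201+ and 3.46-12.0 FPKM in BM-LSKCD201+, macrophage markers to 593-659 FPKM and 397-429 FPKM, and lymphocyte markers to 35.8-43.5 FPKM and 90.7-105 FPKM, and their part was not tested.

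**Figure D4:**
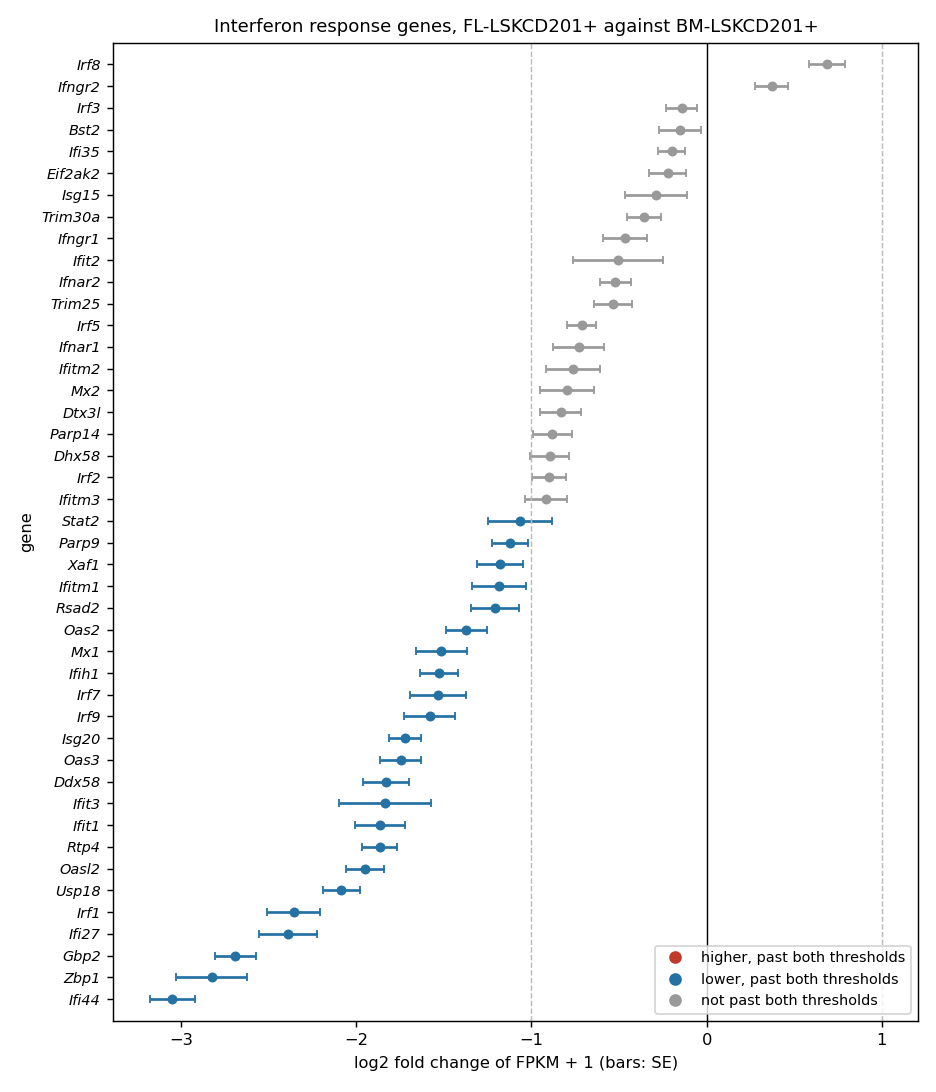
Log2 fold change of FPKM + 1 between FL-LSKCD201+ and BM-LSKCD201+ for the 44 members (points, with SE bars), sorted by size. Blue points are the 23 members lower in FL-LSKCD201+ past both thresholds (dashed lines at -1 and 1), no member was higher, and Ifi44 lies at -3.05.

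The cocultures asked what the OP9 stroma adds over 0.1% gelatin on day 5. Total cells of the 3D+OP9 culture had higher levels of 7 members and a lower level of 1, of 37 tested, where 2.11% of all genes were higher and 0.509% were lower (2.62% in all). The member median was 0.52 and that of all genes 0.01. Ifi27 measured 3.08, 1.51 and 2.78 FPKM in 3D+OP9 and 0.28, 0.07 and 0.07 FPKM in the gelatin culture, which gave a log2 fold change of 1.57 ± 0.20 (limma adjusted p = 0.0055). Trim25 measured 12.0, 11.3 and 13.8 FPKM against 3.68, 3.58 and 5.24 FPKM (1.38 ± 0.15), and Rtp4 measured 2.78, 2.45 and 2.06 FPKM against 0.61, 0.19 and 0.27 FPKM (1.35 ± 0.16). Every 3D+OP9 library lay above every gelatin library for these genes.

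Ifitm1 was the most abundant member that was higher on OP9, with 203, 219 and 197 FPKM against 95.7, 83.5 and 83.2 FPKM (1.23 ± 0.08, limma adjusted p = 0.00067). Ifit3 was almost undetected on gelatin, with 0.03, 0.05 and 0.00 FPKM, and measured 1.51, 0.99 and 1.42 FPKM on OP9 (1.16 ± 0.13). Without OP9 replicate 1, Ifit3 no longer passed the filter. Ifit3, Ifit1, Ifi27 and Rtp4 had gelatin means under 0.5 FPKM and passed the filter through 3D+OP9. Ifit1 was also higher, with 0.98, 0.86 and 1.52 FPKM against 0.06, 0.00 and 0.04 FPKM. Its log2 fold change of 1.02 missed the threshold under quantile normalization (0.88), and without OP9 replicate 1 or 3 Ifit1 no longer passed the filter. Ddx58 was higher by 1.06 ± 0.11 and missed the threshold under quantile normalization. Gbp2 was the lower member, with 13.6, 11.7 and 9.70 FPKM on OP9 and 29.2, 33.6 and 23.2 FPKM on gelatin (-1.23 ± 0.16, adjusted p = 0.0062). Usp18 spread widely on OP9, at 5.90, 4.16 and 1.08 FPKM, and did not pass the test (adjusted p = 0.13). The 4 receptors and 8 transcription factors did not pass both thresholds, and Mx1 and Mx2 had no values in this table.

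Of 57 other pathway genes tested in the cocultures, 6 were higher on OP9 and 0 were lower, against 17 and 5 at an unadjusted p under 0.05 (limma). Past both thresholds, 2.11% of all genes were higher and 0.509% were lower. Oas1a (2.26 ± 0.23), Lgals9, which encodes a galectin (2.08 ± 0.14), and Lgals3bp (2.06 ± 0.21) had the largest differences. Tmem173 and Uba7 were also among the 6, and Tmem173 missed the threshold under quantile normalization. The 9 interferon ligand genes with values summed to at most 0.39 FPKM in any coculture library. Erythroid markers summed to 187-695 FPKM on OP9 and 4.26-18.4 FPKM on gelatin. Stromal markers summed to 70.3-78.3 FPKM on OP9 and 29.8-42.1 FPKM on gelatin, endothelial markers to 116-140 FPKM and 23.3-39.5 FPKM, and pan-leukocyte markers to 13.0-18.3 FPKM and 5.81-6.58 FPKM. Whether OP9 cells contributed reads to the total cells of that culture was not tested, and the part of these cell types in the differences was not tested.

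**Figure D5:**
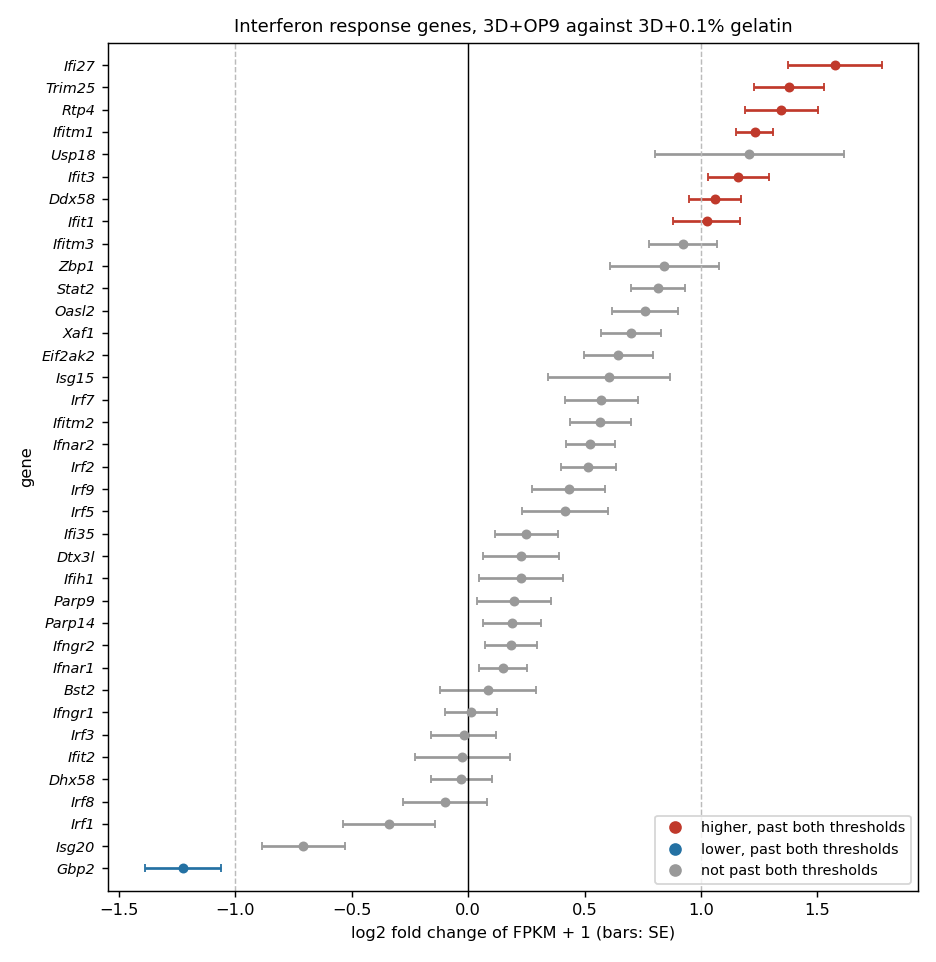
Log2 fold change of FPKM + 1 of the OP9 culture over the gelatin culture for the 37 members tested (points, with SE bars), sorted by size. Red points are the 7 members higher and the blue point, Gbp2 at -1.23, the member lower past both thresholds (dashed lines at -1 and 1), and the wide bar of Usp18 reflects its spread on OP9.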

How the data were processed

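RNA of 21 libraries, 3 in each of 7 groups, was sequenced as paired reads. The authors aligned reads to GRCm38 with HISAT2 2.0.5 and assembled transcripts with StringTie 1.3.3, and their notes also name Cuffdiff 1.3.0 and mm9. The deposited values used here are FPKM in 2 separately normalized tables, so no level was set across them. The number of reads behind a value is unknown, and no counting interval can be given. The coculture table carries numeric gene IDs and the sorted-cell table Ensembl IDs, and the annotation behind each is not given in the sources used here.

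Members were matched by symbol, and members and gene lists were chosen with earlier results of these data known. Values were tested as log2(FPKM + 1) with limma 3.58.1 (R 4.3.3, trend, two-sided), on the 6 libraries of each comparison and on genes whose mean over them reached 0.5 FPKM. A gene low in either group could pass this filter through the other group alone, and a call on such a gene depends on that group. Fold changes are on this scale and understate those of low genes. P-values were adjusted by Benjamini-Hochberg over all genes tested, and a call needs an adjusted p under 0.05 and a log2 fold change of at least 1 in size. An exact permutation of 3 against 3 libraries cannot go below p = 0.1. Fold changes are printed for the 6 called members with the largest size in each direction, all called receptors and transcription factors, and 3 pathway genes in each direction. Gene positions are those of GENCODE M21 (GRCm38).

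Replicate numbers paired FL and BM libraries (correlations of deviations from the group means 0.242, 0.202 and 0.159). FPKM summed to 508622-620332 per sorted-cell library and 483263-508307 per coculture library. Alternatives were a pseudocount of 0.1 FPKM, no filter, quantile normalization, a replicate block, leaving out each library and, chosen after seeing the data, averaging the closest pair of libraries in 4 groups. One pathway gene is counted in the lists but not reported here by name.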

Additional observations from a re-analysis of the deposited data

How the results depend on the processing

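The 136 fold changes of called members kept their direction under each alternative that gave a value. Of 1466 such values, 36 no longer passed both thresholds, in 17 of the 136 fold changes, and 5 further values could not be had because Ifi44, Ifit1 or Ifit3 missed the filter. Counts stayed within 1.5 times except between D5-LSKCD201- and mESC. There the 6 higher members became 3 under quantile normalization, and the 1 lower member (Bst2) became 3 with a pseudocount of 0.1, 0 with no filter and 2 under quantile normalization. Leaving out single libraries gave 3 to 6 higher and 0 to 1 lower members there, with 3 and 0 without D5-LSKCD201- replicate 2 and 0 lower without mESC replicate 1, 2 or 3. The cause was not tested. Quantile normalization moved the median of all genes by -0.15 to 0.21 on the log2 scale, and the members lower in D5-LSKCD201+ than in BM-LSKCD201+ were then 28.

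With the replicate number as a block, the 23 members lower in FL-LSKCD201+ than in BM-LSKCD201+ remained 23 in number, and the block changed no other count. For 3D+OP9 and gelatin the correlations of deviations by replicate number were also all positive (0.182, 0.0724 and 0.291). The main test took these libraries as unpaired, so any pairing by replicate number is part of their spread there. In the remaining comparisons some or all of these correlations were negative. Without counts, members near or below 1 FPKM, such as Irf2 and Rsad2 in mESC, cannot be given a detection limit.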
